A study of Mus musculus with 4 samples.

Results

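The TGF-β genes described here are the ligands Tgfb1, Tgfb2 and Tgfb3, the receptors Tgfbr1 and Tgfbr2, the latent TGF-β binding proteins Ltbp1, Ltbp2 and Ltbp4, and the inhibitory Smad7, which is also a target of the pathway. They were chosen by name and are 9 of the 23462 genes to which a probe of the array could be matched. Of the 56605 probes that are not controls, 15 carry a transcript of one of these 9 genes, and each of them is present as 1 spot. Liver RNA came from male mice of C57BL/6 background aged 24 weeks. F/F mice (Lpiat1F/F) carried floxed alleles of Lpiat1, also called Mboat7, which encodes an acyltransferase that puts arachidonic acid into phosphatidylinositol. LKO mice (Alb-Cre; Lpiat1F/F) carried the same floxed alleles together with a Cre driven by the albumin promoter, so that cells of the liver other than hepatocytes keep the gene. Mice of both genotypes received standard chow (CE2) or a high fat diet (HFD-60) from the age of 6 weeks, over 18 weeks. Each of the 4 combinations of genotype and diet was measured on 1 one-colour array, and the labels do not say whether an array holds RNA of 1 mouse or a pool. No difference below can therefore be held against replicates, and no test was run.

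TGF-β ligands are secreted as latent complexes, in which the propeptide stays wrapped around the mature dimer and is tied to the extracellular matrix by a latent TGF-β binding protein. Once freed by integrins, thrombospondin-1 or proteases, the dimer binds TGFBR2, which recruits and phosphorylates TGFBR1, and TGFBR1 phosphorylates SMAD2 and SMAD3, which enter the nucleus with SMAD4. In liver the pathway is best known for turning hepatic stellate cells into collagen-producing myofibroblasts and for restraining hepatocyte growth, and SMAD7 is induced by the signal and blocks the receptor in a negative feedback.

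The promoters of Tgfb2 and Ltbp1, the genes that HFD-fed F/F liver showed at least 2-fold above chow-fed F/F liver, are shown because these genes differed most between the diets in F/F. The RefSeq promoter table of assembly GRCm38.p6 matched 7 of the 9 genes, with 11 starts in all; it holds no entry for Tgfb3 or Smad7. The 250 bases before the start of Tgfb2, on the minus strand at chr1:186705990-186706239, and before the first listed start of Ltbp1, on the plus strand at chr17:75005279-75005528, are printed 5′ to 3′. Capitals mark a TATA box (TATAAA), the palindrome of the cAMP response element (TGACGTCA) and CCAAT boxes (CCAAT, or ATTGG where the box lies on the other strand).
Tgfb2: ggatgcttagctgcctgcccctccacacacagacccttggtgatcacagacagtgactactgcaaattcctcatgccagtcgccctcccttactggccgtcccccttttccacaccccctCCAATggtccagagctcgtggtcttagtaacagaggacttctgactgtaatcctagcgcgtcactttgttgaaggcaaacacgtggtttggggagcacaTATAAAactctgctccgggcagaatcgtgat
Ltbp1: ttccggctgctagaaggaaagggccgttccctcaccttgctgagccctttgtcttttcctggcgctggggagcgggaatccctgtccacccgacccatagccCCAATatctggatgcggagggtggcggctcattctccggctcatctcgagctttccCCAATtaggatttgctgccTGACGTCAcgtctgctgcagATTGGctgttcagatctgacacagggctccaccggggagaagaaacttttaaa

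In Tgfb2 the TATA box began at position -31 and the CCAAT box at -130, counted from the start. In Ltbp1 the cAMP response element began at -73 and the CCAAT boxes at -148, -92 and -53. In all, 6 motifs were searched on both strands of the 250 bases before all 32851 listed starts, and their matches may overlap each other. TATAAA was found in 12.4% of all promoters and in 1 of the 11 starts of these genes, that of Tgfb2. TGACGTCA was found in 1.55% of all promoters and in 1 of the 11 starts, that of Ltbp1. The GC box GGGCGG was found in 32.7% of all promoters and in 6 of the 11 starts, which belong to Tgfb1, Tgfbr1, Ltbp2 and Ltbp4. CCAAT was found in 33.8% of all promoters and in 5 of the 11 starts, 1 each of Tgfb2, Tgfbr1, Tgfbr2, Ltbp1 and Ltbp4. Neither the AP-1 site (TGACTCA or TGAGTCA, 4.46% of all promoters) nor the palindromic Smad element (GTCTAGAC, 0.167%) was found in these 11 windows. These matches describe letters and no factor was measured at them.

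Values are the processed signals of the scanner software, background-subtracted intensities without a unit, given for F/F and LKO on chow and then for F/F and LKO on HFD. Differences are log2 differences of levels, where a level is the log2 signal minus that of the 75th percentile of its array. The software called 53.0% to 57.0% of the spots well above background, no spot was saturated, and the 75th percentile lay between 213 and 296. Mboat7, whose single probe read 1102, 861, 1181 and 1100, was lower in LKO, with log2 differences of -0.30 (chow) and -0.27 (HFD). Whether this probe lies within the deleted exons was not determined, so it is no check of the deletion. The only spread within these files is that between repeated spots of a probe within an array. The SD of the log2 difference of 2 such spots was 0.41 for signals under 30, 0.20 from 30 to 100, 0.13 from 100 to 1000 and 0.07 above 1000, from 16, 21, 53 and 1077 values. It leaves out all differences between mice. Each difference below is set against the SD at the dimmer of its signals, called the spot SD. Where a gene has several probes, the one with the highest mean over the 4 arrays stands for it.

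All 9 of these probes passed the background limit on every array, as did 12 of the 15 probes in all. For 7 of the 9 genes the highest level was on the LKO HFD array, and for Ltbp1 and Ltbp2 it was on the F/F HFD array. Both HFD arrays were above both chow arrays for 8 of the 9 genes, Tgfbr1 being the exception. In 5 genes, Tgfb1, Tgfb3, Tgfbr2, Ltbp4 and Smad7, the levels followed the order LKO HFD, F/F HFD, LKO chow, F/F chow from high to low. The shares of all genes with these patterns were not computed, so these counts describe the 9 genes only.

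**Figure D1:**
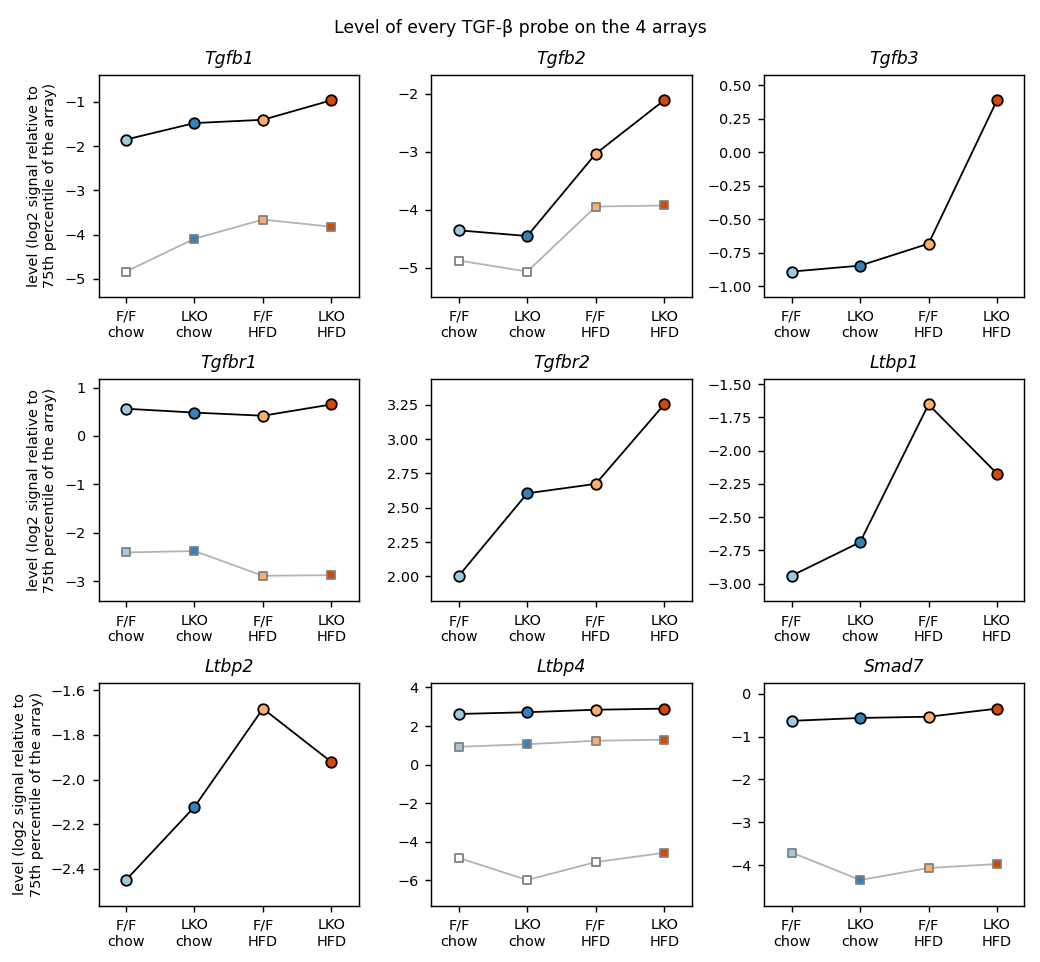
Level of each TGF-β gene on the 4 arrays (x axis), as log2 signal relative to the 75th percentile of the array (y axis, a separate range for each gene). Circles joined by black lines are the brightest probe, squares joined by grey lines are the other probes, and open symbols are signals not well above background; Tgfb2 goes from -4.36 on F/F chow to -2.11 on LKO HFD, while the brightest probe of Ltbp4 stays between 2.62 and 2.90.

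Among the ligands, Tgfb3 and Tgfb2 were higher in LKO than in F/F on HFD by about 1 log2 unit and were near equal between the genotypes on chow, whereas Tgfb1 was higher in LKO on both diets by less. Tgfb3, a ligand found in mesenchymal cells of the liver, read 120, 119, 164 and 387. The LKO HFD array stood above the other 3, which lay close together. On HFD the LKO level of Tgfb3 was 2.10-fold that of F/F (log2 difference 1.07, spot SD 0.13) and in LKO the HFD level was 2.35-fold that on chow (1.23). Its difference between genotypes on chow was 0.04, less than the spot SD, and that between diets in F/F was 0.21. A single probe (A_51_P124748) measures the gene. With normexp background correction the difference between genotypes on HFD was 0.87 and that between diets in LKO was 0.99, so that neither reached 2-fold.

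Tgfb2 read 10.8, 9.72, 32.1 and 68.5 at its brightest probe (A_65_P10913). Both chow signals were close to the lowest that the software calls well above background, which lay between 7.80 and 8.35 on the 4 arrays, and both HFD signals were clearly above it. The log2 difference between diets was 1.32 in F/F (2.50-fold) and 2.35 in LKO (5.08-fold), with a spot SD of 0.41 for both. Between genotypes, Tgfb2 was 1.90-fold higher in LKO on HFD (log2 difference 0.92, spot SD 0.20), and on chow the difference was -0.10, less than the spot SD.

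The size of the Tgfb2 differences depends on how background is treated. With normexp they were 0.34 between genotypes on HFD, 0.19 between diets in F/F and 0.43 between diets in LKO, and the difference on chow changed its sign to 0.10. A second probe for another Tgfb2 transcript (A_51_P317640) read 7.53, 6.35, 17.1 and 19.4 and was not well above background on either chow array. It too was higher on HFD, at least 1.84-fold in F/F and at least 1.73-fold in LKO. On HFD it read alike in both genotypes (log2 difference 0.02), unlike the brightest probe.

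Tgfb1, the ligand most studied in liver fibrosis and made by macrophages, platelets and many other cells, read 61.3, 76.4, 99.2 and 151 at its brightest probe (A_51_P390715). The levels of LKO on chow (-1.48) and F/F on HFD (-1.41) lay closer together than the spot SD of 0.20, and F/F chow was below and LKO HFD above them. Its differences were of similar size in all 4 comparisons, 0.44 between genotypes on HFD, 0.37 between genotypes on chow, 0.45 between diets in F/F and 0.52 between diets in LKO. Under normexp these were between 0.15 and 0.25. The second, dimmer probe (A_66_P135688) read 7.77, 12.5, 20.8 and 20.9 and fell short of the background limit on F/F chow. On it the difference between genotypes on HFD was -0.16, within a spot SD of 0.41, and in F/F the HFD level was at least 2.25-fold that on chow.

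Among the receptors, Tgfbr2 was higher both in LKO and on HFD, and Tgfbr1 differed little. Tgfbr2, the receptor that binds the ligand first, read 889.6, 1298, 1679.5 and 2818 at its only probe (A_55_P2909739). The F/F chow array was lowest and the LKO HFD array highest, with LKO chow (2.61) and F/F HFD (2.67) about 1 spot SD (0.07) apart. It was higher in LKO by 0.58 on HFD and by 0.60 on chow, and higher on HFD by 0.67 in F/F and 0.65 in LKO, which is 1.49-fold, 1.52-fold, 1.59-fold and 1.57-fold. Each of these was over 4 times the spot SD, and under the 7 alternatives computed for the difference between genotypes on HFD it stayed between 0.55 and 0.66.

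Tgfbr1, the kinase that phosphorylates SMAD2 and SMAD3, read 327, 298, 352 and 464 at its brightest probe (A_52_P4538). The first 3 arrays lay between 0.42 and 0.56 in level, and LKO HFD was at 0.65. The difference between genotypes was 0.23 on HFD and -0.08 on chow, and that between diets was 0.17 in LKO and -0.14 in F/F, with a spot SD of 0.13. The second probe (A_51_P280137) read 41.9, 41.2, 35.6 and 40.4 and behaved otherwise. On it the genotypes differed by 0.01 on HFD and 0.03 on chow, and both HFD arrays were below both chow arrays (-0.48 in F/F and -0.50 in LKO, spot SD 0.20).

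Of the latent TGF-β binding proteins, Ltbp1 and Ltbp2 were lower in LKO than in F/F on HFD, and Ltbp4 differed little. Ltbp1, which anchors latent complexes in the matrix, read 28.9, 33.1, 83.7 and 65.5 at its only probe (A_55_P1973033). F/F HFD was the highest array. In F/F the HFD level of Ltbp1 was 2.44-fold that on chow (log2 difference 1.29, spot SD 0.41) and in LKO it was 1.43-fold (0.52). In LKO it was higher on chow by 0.25, within the spot SD, and lower on HFD (-0.52), beyond a spot SD of 0.20. Under normexp the difference on HFD was -0.33 and those between diets were 0.50 in F/F and 0.09 in LKO.

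Ltbp2, a family member of elastic microfibrils that is not thought to bind latent TGF-β, read 40.6, 49.0, 82.0 and 78.1 at its only probe (A_55_P1970105). As for Ltbp1, F/F HFD was the highest array, and LKO was higher on chow (0.33) and lower on HFD (-0.24), both beyond the spot SD of 0.20. The diets differed by 0.77 in F/F and by 0.20 in LKO, and the latter became -0.06 under normexp. The differences between genotypes were -0.16 on HFD and 0.11 on chow under normexp, both then smaller than the spot SD. Ltbp4, which binds TGF-β1 and organises elastic fibres, read 1365, 1399, 1888 and 2207 at its brightest probe (A_51_P403536). It was higher on HFD by 0.22 in F/F and 0.19 in LKO, and the genotypes differed by 0.06 on HFD and 0.09 on chow. A second probe (A_55_P2033500), at 421, 443, 619.6 and 724, gave 0.31 and 0.24 between diets and 0.06 and 0.13 between genotypes. The remaining probe, listed for another transcript (A_55_P2033507), read 7.77, 3.39, 7.96 and 12.4 and was well above background on LKO HFD alone.

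Smad7 read 143, 144, 181 and 232 at its brightest probe (A_51_P403636). It was highest on LKO HFD, and its differences were small: 0.19 between genotypes on HFD, 0.07 on chow, 0.10 between diets in F/F and 0.22 in LKO. Those on chow and in F/F were within the spot SD of 0.13. The second, dim probe (A_55_P2741400) read 17.0, 10.5, 15.7 and 18.8, with differences of 0.09, -0.64, -0.36 and 0.37 in the same order against a spot SD of 0.41.

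**Figure D2:**
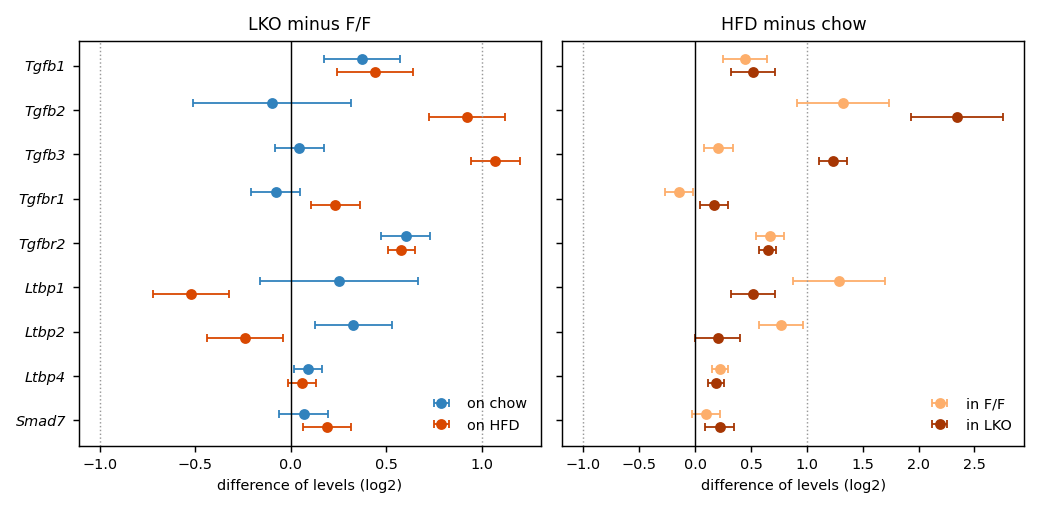
Log2 difference of levels (x axis) for the brightest probe of each TGF-β gene, LKO minus F/F on the left and HFD minus chow on the right. Bars are 1 spot SD to each side, which covers spots of one array and no differences between mice, and dotted lines mark 2-fold. On HFD Tgfb2 (0.92) and Tgfb3 (1.07) lie to the right and Ltbp1 (-0.52) to the left. On the right-hand side 8 of 9 genes in F/F and 9 of 9 in LKO are above 0, beside 47.8% and 43.5% of all genes.

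Counted over the 9 genes, 7 were higher and 2 lower in LKO on HFD, with a median log2 difference of 0.23. Over the 15528 genes with a value this median was -0.03 and 45.9% were higher. Tgfb3 alone was at least 2-fold different among the 9, where 4.26% of all genes were, and 2 of the 9 (Tgfb2 and Tgfb3) were at least 1.5-fold different, where 14.1% of all genes were. On chow 7 were higher and 2 lower in LKO, where 50.7% of all genes were higher. The median on chow was 0.09 against 0.00 for all genes, and 0 of 9 were at least 2-fold different beside 2.14% of all genes (1.5-fold: Tgfbr2, beside 6.98%). Between diets in F/F 8 were higher on HFD, where 47.8% of all genes were. The median in F/F was 0.45 against -0.02, and 2 of 9 (Tgfb2 and Ltbp1) were at least 2-fold different beside 8.15% (1.5-fold: 4 of 9 beside 22.8%). In LKO all 9 were higher on HFD (8 under normexp, where Ltbp2 was lower), beside 43.5% of all genes. The median in LKO was 0.52 against -0.07, and 2 of 9 (Tgfb2 and Tgfb3) were at least 2-fold different beside 12.2% (1.5-fold: 3 of 9 beside 27.1%). With normexp none of the 9 reached 2-fold in any of the 4 comparisons, and the medians between diets were 0.19 in F/F and 0.20 in LKO. Differences beyond the spot SD numbered 8 of 9 between genotypes on HFD, beside 64.2% of all genes with a value, and 4 of 9 on chow, beside 47.9%. Between diets they numbered 8 of 9 in F/F, beside 73% of all genes, and 9 of 9 in LKO, beside 75.6%. Since comparisons that share an array are not independent (F/F HFD enters both the genotype difference on HFD and the diet difference in F/F), these counts stand side by side only.

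The difference of the genotype differences, HFD minus chow, was 1.02 for Tgfb2 and 1.03 for Tgfb3. For comparison, the middle 95% of the 13981 genes well above background on all 4 arrays ran from -0.91 to 0.99, with a median of -0.05. It was -0.77 for Ltbp1 and -0.57 for Ltbp2, 0.31 for Tgfbr1 and 0.12 for Smad7. For Tgfb1, Tgfbr2 and Ltbp4 it was 0.07, -0.02 and -0.03, so that their genotype differences were of near equal size on both diets. Under normexp the same contrast was 0.24 for Tgfb2, which then lay well inside the middle 95% of these genes (-0.62 to 0.62), and 0.80 for Tgfb3, which lay outside it. It was -0.41 for Ltbp1 and -0.27 for Ltbp2.

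The genes closest to each ligand in profile, measured as the Euclidean distance between mean-centred levels over the 4 arrays, were Txndc16 (0.014), Pdgfb (0.038) and Arrb2 (0.040) for Tgfb1. For Tgfb2 they were Btc (0.13), Arhgap44 and Arhgap25 (both 0.14), and for Tgfb3 they were Gdpd1 (0.094), Gabra3 and Armcx4 (both 0.14). Of the 13980 genes compared, 89 lay within a distance of 0.16 for Tgfb1, and 4 each for Tgfb2 and Tgfb3. That distance was set from the spot SD pooled over all signals (0.09), where 1077 of 1167 values lie above a signal of 1000. The ligand probes are dimmer and have larger spot SDs, so more genes may lie within their own spot spread. With 4 arrays such likeness describes these arrays only.

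Of the 19 genes that hold TGF-β latent or release it, 17 had a value. On HFD 14 of these were higher in LKO and 3 lower, none at least 2-fold, with a median of 0.22. Over all genes, beside this list and those below, 45.9% were higher in LKO on HFD (median -0.03, 4.26% at least 2-fold different). On chow 50.7% of all genes were higher in LKO (median 0.00). Between diets 47.8% of all genes were higher on HFD in F/F (median -0.02) and 43.5% in LKO (-0.07). The integrin β chains Itgb6 and Itgb8, whose integrins pull open the latent complex, were not well above background on any array. Itgb3, the β chain of the vitronectin receptor, was higher in LKO on HFD by 0.57 and the fibrillin gene Fbn1 by 0.44, and the gelatinase Mmp9 was lower (-0.44). The other probes of Itgb3 and Fbn1 gave 0.91 and 0.12. Nrros, which tethers latent TGF-β1 on macrophages and microglia, read 347, 387, 697.5 and 1040.3, a difference of 0.41 between genotypes on HFD and 0.21 on chow. Thbs1, encoding the activator thrombospondin-1, read 20.8, 10.2, 74.6 and 89.1. It was higher on HFD by 1.59 in F/F and 2.65 in LKO and lower in LKO on chow (-0.97), and its small difference on HFD (0.09) changed sign under normexp. Ltbp3, the remaining family member, read 59.6, 50.5, 106 and 158 (0.40 between genotypes on HFD), but its other probe gave -0.29. Between diets, 12 of the 17 were higher on HFD in F/F (median 0.18) and 13 in LKO (0.51).

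Among the 8 co-receptors and modulators, 7 had a value, and 5 were higher in LKO on HFD with a median of 0.14. Betaglycan (Tgfbr3), which presents Tgfb2 to the receptors, differed by 0.14 to 0.15 in each of the 4 comparisons. Endoglin (Eng) and Acvrl1, co-receptor and receptor of endothelial cells, differed by 0.14 and 0.39 on HFD, and between diets by 0.27 and 0.61 in F/F. The other probe of Acvrl1 gave 0.56 between genotypes on HFD. The 13 Smad transducers and regulators were split, with 10 higher and 3 lower in LKO on HFD and a median of 0.07. Smad2 and Smad4 differed by -0.05 and 0.07. The other probe of Smad2 gave 0.05, and the other probes of Smad4 lay on both sides of zero (-0.23, 0.00, 0.36 and -0.13). Smad3 read 410, 236, 326 and 426, lower in LKO on chow (-0.74) and higher on HFD (0.22). Nedd4l, a ubiquitin ligase for SMAD2 and SMAD3, was higher in LKO on both diets (0.59 on HFD and 0.57 on chow) and lower on HFD than on chow in both genotypes (-0.61 in F/F and -0.59 in LKO), and its other probe gave 0.17 between genotypes on HFD. The corepressor Tgif1 was higher in LKO on HFD by 0.50, and the ubiquitin ligase Smurf1 (-0.25) and the phosphatase Ppm1a (-0.25) were lower.

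The 22 genes known to respond to TGF-β had larger medians between diets than between genotypes. In F/F 16 of 20 with a value were higher on HFD, 10 of them at least 2-fold, with a median of 0.93. Over all genes in F/F 47.8% were higher on HFD and 8.15% were at least 2-fold different. In LKO 20 of 22 were higher, 10 at least 2-fold, with a median of 0.90, beside 43.5% and 12.2% of all genes. Between genotypes on HFD 18 of 22 were higher in LKO, 2 at least 2-fold, with a median of 0.27, and on chow 14 of 19 with a median of 0.23. Of all genes 45.9% were higher in LKO on HFD, 4.26% were at least 2-fold different there, and 50.7% were higher on chow. On HFD, Lox and Tnc were well above background in LKO alone, so they could only count as higher. Between diets in LKO, Lox, Tnc and Eln were not well above background on chow and could only count as higher, Tnc at least 2-fold. The same held for Eln in F/F, where Lox and Tnc had no value. The medians between diets thus rest on unlike sets, 20 genes in F/F and 22 in LKO. The collagen gene Col1a1 read 49.1, 72.9, 395 and 602.5, higher in LKO by 0.44 on HFD and 0.63 on chow and higher on HFD by 2.76 in F/F and 2.58 in LKO. Ccn2 (connective tissue growth factor) differed by 0.20 between genotypes on HFD and 1.06 between diets in F/F, Tgfbi by 0.27 and 0.68, and Acta2 (smooth muscle actin) by 0.23 and 0.53. Between genotypes on HFD the other probes gave 0.43 and 0.17 for Col1a1 and -0.00 and 0.22 for Acta2. The cell cycle inhibitors Cdkn1a and Cdkn2b were lower in LKO on chow (-0.43 and -1.02) and higher on HFD (1.09 and 0.82). Junb was lower in LKO on both diets (-0.29 on HFD and -0.56 on chow), but its other probe gave 0.03 on HFD. The second gene at least 2-fold higher in LKO on HFD was Tnc (tenascin C), named after its value was seen, which was well above background on LKO HFD alone and at least 7.19-fold higher there.

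**Figure D3:**
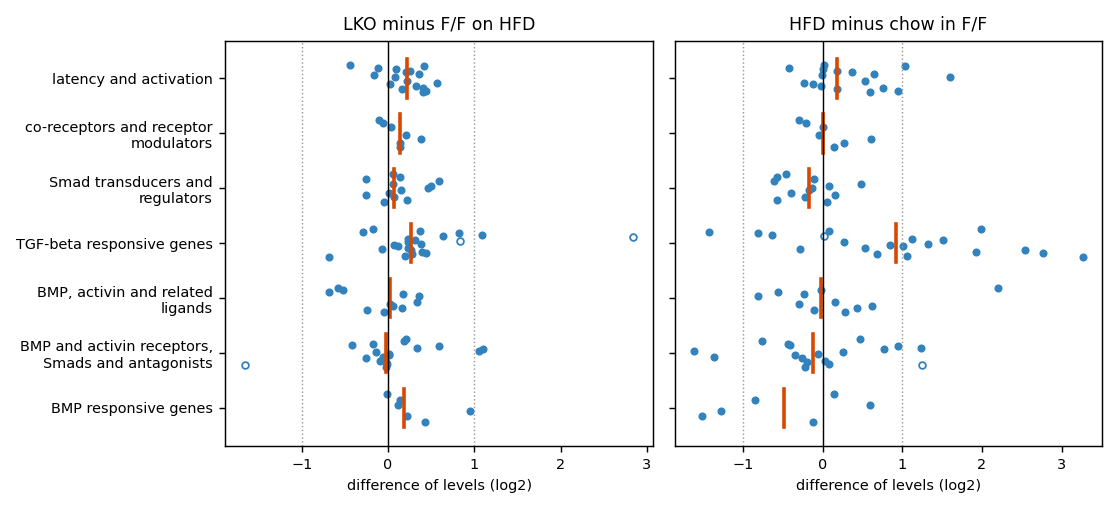
Log2 difference (x axis) of each gene with a value in 7 lists of the TGF-β and BMP pathways, LKO minus F/F on HFD on the left and HFD minus chow in F/F on the right. Open points are bounds, bars are list medians and dotted lines mark 2-fold; the median of the TGF-β responsive genes is 0.27 on the left and 0.93 on the right, and those of the other lists lie between -0.48 and 0.22.

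**Figure D4:**
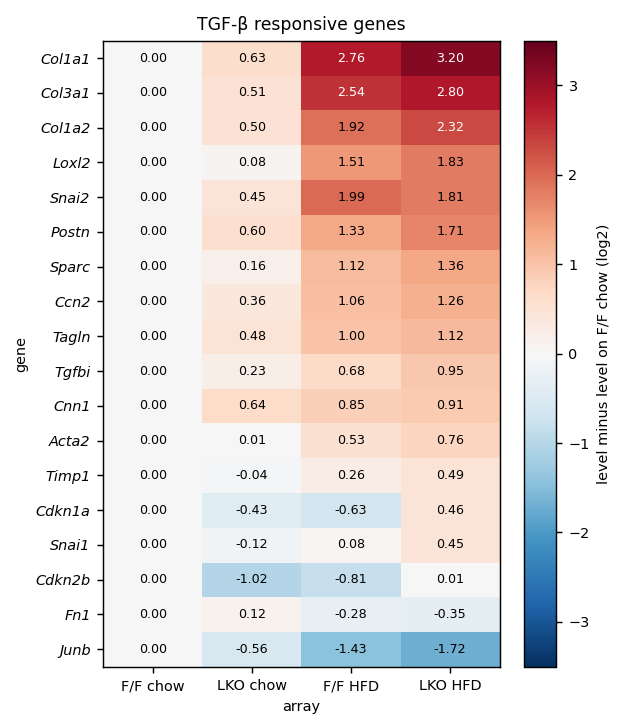
Level of TGF-β responsive genes well above background on all 4 arrays (those reported here), as log2 difference from the F/F chow array (colour and printed value). Columns are the 4 arrays; on F/F HFD Col1a1 stands at 2.76 and Col3a1 at 2.54, and Junb is below F/F chow on the other 3 arrays.

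In whole liver, fewer cells of a type and less RNA per cell cannot be told apart, and several cell types make or answer TGF-β. Marker lists were summed as linear levels relative to the 75th percentile. The counts of markers higher in LKO on HFD stand beside 45.9% of all genes, whose median was -0.03. All 11 markers of quiescent stellate cells were higher in LKO on HFD (median 0.30; Lrat 0.43, Des 0.57, Reln 0.19), and their sum was 57.2, 61.3, 68.3 and 80.7. Of 9 myofibroblast markers, 8 of which are also in the responsive list, all 9 were higher (median 0.39), with sums of 13.6, 16.6, 30.9 and 37.1. Among them Lox was well above background on LKO HFD alone, so it could only count as higher. For monocytes and macrophages 14 of 16 were higher (median 0.77; Adgre1 0.36, Cd68 0.84, Csf1r 0.36), with sums of 121, 115, 158 and 210.0, and Marco (-1.64) and Timd4 (-0.95) were lower. Sinusoidal endothelium had sums of 49.8, 52.2, 62.1 and 62.5 (7 of 10 higher, median 0.10), and cholangiocytes 5.22, 4.72, 13.7 and 15.6 (6 of 7 with a value higher, median 0.29). The cholangiocyte sum is mostly Spp1 (0.16 between genotypes on HFD). The cholangiocyte marker Epcam was not well above background on F/F HFD, so on HFD it could only count as higher. T cell markers were higher in 8 of 9 (median 0.69), although their sum, which is mostly Cd4, was 22.0, 19.5, 16.0 and 15.1. Of these, Cd8a and Foxp3 were well above background on LKO HFD alone and could only count as higher. Platelet sums were 0.752, 0.768, 1.60 and 2.22 (3 of 6 with a value higher), with Gp1ba and Gp5 not well above background on any array, and mesothelial sums stayed between 1.09 and 1.21 (2 of 5 higher). The platelet sum is mostly Pf4, which was higher in LKO on HFD (0.64), whereas Ppbp (-0.37), Itga2b (-0.76) and Gp9 (-0.80) were lower. The platelet gene Gp1bb, well above background on LKO HFD alone, could only count as higher.

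The defining hepatocyte genes Alb, Apoa1 and Apob were well above background on each array. The hepatocyte sum was 2192, 2193, 1759 and 1502, and 6 of 7 markers were lower in LKO on HFD (median -0.16). Before scaling, Alb, the brightest of them, read 231569, 228565, 221091 and 222615. The 75th percentile that divides these signals was 222, 213, 263 and 296. The part that this scaling has in the lower hepatocyte sums on HFD was not tested. Red cell markers were lower in LKO on HFD in all 5 with a value, of 9 listed (median -0.96), with sums of 172, 171, 343 and 174. Markers of exocrine pancreas summed to 62.9, 40.8, 35.2 and 76.0, and 19 of 19 with a value were higher in LKO on HFD (median 1.92) and lower on chow (-0.88). The parts that stellate cells, macrophages, platelets, red cells and pancreatic RNA have in the levels of the 9 TGF-β genes were not tested.

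**Figure D5:**
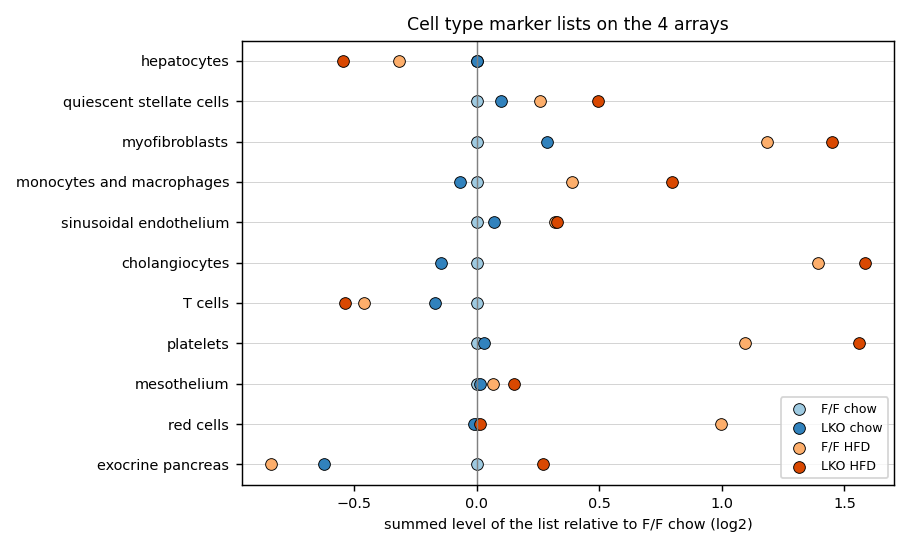
Summed level of 11 cell type marker lists on the 4 arrays, as log2 relative to the F/F chow array (x axis). Each point is 1 array. All lists except those of hepatocytes, T cells and red cells are highest on LKO HFD, sinusoidal endothelium by little (62.5 against 62.1 on F/F HFD). The platelet sum is mostly Pf4 and the cholangiocyte sum mostly Spp1. Of 6 platelet genes with a value on HFD, 3 were higher and 3 lower in LKO. The red cell list stands apart on F/F HFD, and the exocrine pancreas list is high on LKO HFD and F/F chow.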

How the data were processed

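The authors deposited scanner files of Agilent SurePrint G3 arrays with the processed intensity of each spot, made with Agilent Feature Extraction 12.0.3.1 (background subtraction and detrending), its raw median intensity, and flags (outlier, saturated, well above background). A further deposited table proved to be the processed intensity times 1 factor per array (2.60, 2.63, 2.41 and 2.10, column medians 34.5, 33.2, 36.1 and 36.0), linear and not centred; how the factors were made is not given in the sources used here. From these, log2 of the processed intensity minus its 75th percentile over non-control spots was computed (Python 3.11.15, pandas 2.3.3, numpy 2.4.6; figures with matplotlib 3.10.9), without outlier spots. Accessions were matched to symbols through the RefSeq gene table of GRCm38.p6: 33767 of 56605 probes (59.7%) matched. A probe not well above background on 1 array of a comparison has only a bound, the bright level against the higher of the lowest level among probes well above background there and its own, written "at least N-fold"; below background on both, or where the bright level does not exceed this bound, it has no value. The direction of a bound is fixed by the array on which the probe is bright, and genes with a bound enter the list counts and medians. No test was run, since no condition has a second array. The scripts were tested on simulated data.

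Named were all 9 genes with every probe, the genes highest and lowest in each pathway list between genotypes on either diet, a fixed set (such as Ccn2, Col1a1, Smad3) and the first markers of each cell type. A few genes that enter the list counts are not reported here by name. The members and lists were chosen with earlier results of these data known, and some of these genes are among those the study displays from these arrays, so their values are no independent support. Alternatives were normexp with offset 50 (limma 3.58.1 in R 4.3.3, on the median signals), quantile normalization, 2 other percentiles, the deposited table, a stricter filter, no filter, the mean of all probes and 1.5-fold.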

Additional observations from a re-analysis of the deposited data

Results flagged for a closer look

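Opposite directions in the compared pairs marked 5 results of 4 genes, each from 1 array per condition, and none of the differences was tested. For Tgfb2 the difference between genotypes was 0.92 on HFD and -0.10 on chow, which differ by 1.02 on the log2 scale, but the value on chow was within the spot SD. Under normexp the values were 0.34 on HFD and 0.10 on chow, no longer opposite, and differed by 0.24. For Tgfbr1 it was 0.23 on HFD and -0.08 on chow, which differ by 0.31, with the value on chow within the spot SD of 0.13. The diet difference of Tgfbr1 was 0.17 in LKO and -0.14 in F/F, which differ by the same 0.31 since the same 4 arrays enter. On the second probe of Tgfbr1 neither pair was opposite. It gave 0.01 on HFD and 0.03 on chow between genotypes, and -0.50 in LKO and -0.48 in F/F between diets. For Ltbp1 the difference between genotypes was -0.52 on HFD and 0.25 on chow, a contrast of -0.77, with the value on chow within the spot SD; under normexp the contrast was -0.41. For Ltbp2 it was -0.24 on HFD and 0.33 on chow, a contrast of -0.57, with both values beyond the spot SD of 0.20. Under normexp these were -0.16 and 0.11, both smaller than that SD, and the contrast was -0.27.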

How the results depend on the processing

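The counts of the 9 genes at least 2-fold different and both medians between diets moved with normexp, whereas the medians between genotypes kept within 0.14 to 0.27 on HFD and 0.05 to 0.11 on chow under the alternatives run. Under normexp the counts were 0 on HFD between genotypes (1 as reported), 0 between diets in F/F and 0 in LKO (2 each as reported), and the medians between diets were 0.19 in F/F and 0.20 in LKO (0.45 and 0.52 as reported). At 1.5-fold the counts were 2 between genotypes on HFD, 1 on chow (0 as reported) and 4 between diets in F/F. The medians between diets (F/F, then LKO) were 0.58 and 0.66 with the deposited table and 0.67 and 0.39 with the mean of all probes. The deposited table moved the median of all genes by 0.14 between diets in F/F and 0.15 in LKO, and no filter with no floor moved it by -0.14 in LKO, so these values are read relative to that shift. Normexp adds an offset to each signal, which by construction shrinks differences of dim probes; for the other settings the cause was not tested. Of 386 alternative values of single probes 351 moved by less than the spot SD and 35 by more, 19 of these under normexp and 12 under the deposited table, and 8 of the 57 differences changed sign under some setting. Leaving out an array would leave a condition empty. No paired analysis was possible because each condition has 1 array. Signals near the background limit precision for Tgfb2 on chow and the second probes of Tgfb1, Tgfb2, Ltbp4 and Smad7.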

Other observations

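The BMP and activin branch, which shares SMAD4 and SMAD7 with TGF-β, had genes on both sides between genotypes. Of 15 BMP, activin and related ligands 11 had a value, 6 higher and 5 lower in LKO on HFD, where 45.9% of all genes were higher. Their median log2 difference was 0.02, and its sign changed with the scaling. The hepatocyte activin gene Inhbc (-0.68) and the stress-induced Gdf15 (-0.58), listed as a related ligand, were lowest. Inhba (0.36) and Gdf2 (0.34), the gene of BMP9, were highest. On chow Inhbe (0.74) and Gdf15 (0.73) were higher in LKO and Inhba (-0.55) and Inhbb (-0.43) lower. Bmp6, the inducer of hepcidin, was higher on HFD by 0.61 in F/F and 0.51 in LKO.

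Of the 20 BMP and activin receptors, Smads and antagonists 18 had a value on HFD, 8 higher and 10 lower in LKO (median -0.02, sign changing with the scaling). Follistatin (Fst), which binds activins, read 50.4, 47.8, 102 and 246 and was higher in LKO on HFD by 1.10. Smad9 read 88.0, 67.4, 34.2 and 79.5, a difference of 1.05 on HFD, and the antagonist Nog (-0.41) and the receptor Acvr2a (-0.25) were lower. The receptor Bmpr1b, named after its value was seen, was well above background on F/F HFD alone and at least 3.16-fold lower in LKO on HFD (log2 difference -0.51 under normexp). On chow Fstl1 (0.32) and Smad1 (0.30) were higher in LKO and Smad9 (-0.33) lower. Smad6, the inhibitory Smad of the BMP branch, differed by -0.14 on HFD and 0.08 on chow. Of 6 BMP responsive genes 5 were higher in LKO on HFD (median 0.18), led by Id3 (0.95) and Id1 (0.43), and 4 of 6 were lower on chow (median -0.16), among them Hamp (-0.40) and Atoh8 (-0.35). None of these differences has a replicate check.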
